A study of Mus musculus with 8 samples.

Results

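The proteasome subunit genes were taken by name: a row of the table counted as a member if its Ensembl ID belongs to a protein-coding mouse gene whose symbol is Psma, Psmb, Psmc or Psmd followed by a digit, apart from the immunoproteasome genes Psmb8, Psmb9 and Psmb10. The rule found 37 genes among the 35275 in the table. They comprise 8 genes of the alpha ring and 8 of the beta ring of the 20S core particle, 6 ATPases and 11 non-ATPases of the 19S regulatory particle, 3 assembly chaperones with a Psmd name, and Psmc3ip, a meiotic recombination factor that shares only the name. Of the 37, 35 had a mean of at least 1 FPKM (fragments scaled to the length of a gene and to the depth of a library) over all libraries and were tested. They included 14 core and 17 regulatory particle genes. Psma8, an alpha subunit of the testis, was listed at 0 in 7 libraries and at 0.0946 FPKM in control 12 h replicate 1. Psmb11, the beta subunit of the thymus, was at 0.0126 FPKM in control 12 h replicate 1, at 0.0583 FPKM in control 24 h replicate 2 and at 0 in the other 6 libraries.

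Myotubes, the multinucleated cells that muscle precursors form in culture, came from primary cultures of C57BL6/J mouse myogenic progenitor cells (MPCs). Extracellular vesicles (EVs) of MPCs were left on the myotubes for 12 h or 24 h, and control myotubes received EVs obtained from growth medium for the same times. Each of the 4 groups had 2 libraries, and no group without any EVs was analysed here, so a lower level with MPC EVs and a higher level with the control EVs cannot be told apart. The labels do not state that the 2 libraries of a group were separate cultures, so p-values measure the spread between libraries, which may be technical.

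The proteasome is the main protease of the cytosol and nucleus. Its core is a barrel of stacked rings: outer alpha rings gate the entry, and inner beta rings carry the cutting sites. The regulatory particle docks on the alpha ring, binds ubiquitin-tagged proteins, removes the ubiquitin and unfolds the protein with its ring of ATPases. In muscle, this system degrades contractile proteins when fibres waste or are rebuilt, and the transcription factor NRF1 (gene Nfe2l1) raises the transcription of many subunit genes when proteasome capacity is short.

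Depth, read from the steps of low values, was 16.3 to 20.2 M fragments per library (M for mega). For Psmc5, whose values were whole fragment numbers in all 8 libraries, this gave 3836 to 6121 fragments, a counting error of 1.28% to 1.61%. Control 12 h replicate 2 stood apart: it correlated with its partner at 0.947 across 10981 genes on the log2 scale, against 0.992 to 0.996 in the other groups. Its share of mitochondrially encoded transcripts was 1.56%, and that of the other 7 libraries 2.09% to 4.81%. Calls at 12 h of proteasome and related genes that did not hold without it are given with both values. The markers of myotubes summed to 9639 to 15270 FPKM, with all 8 of 8 detected. Progenitor markers summed to 71.9 to 117.0 FPKM and proliferation markers to 15.9 to 42.4 FPKM. Fibroblast markers summed to 4.51 to 10.7 FPKM, and macrophage, endothelial and adipocyte markers to at most 2.18, 0.491 and 0.814 FPKM.

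Promoters are shown for alpha ring genes that hold a CCAAT box, since 5 of the 7 tested alpha ring genes fell at 12 h (Psma2, Psma4, Psma5, Psma6 and Psma7), and for catalytic and ATPase genes that hold a candidate NRF1 element. RefSeq promoters (250 bases before to 50 after the start, GRCm38.p6) were found for 30 of the 37 members, with 32 promoters in all, since Psma6 and Psmc2 have 2 each. The CCAAT box, bound by NF-Y, was searched on both strands and was in 13 of these 32 promoters (40.6%), against 37.4% of all 32851 promoters of the same length. It was in 5 of the 8 alpha ring promoters available, in 2 of 5 for the beta ring, 2 of 6 for the ATPases and 2 of 9 for the non-ATPases. Psma4 and Psma5 had no match, nor had the other promoter of Psma6. The core of the antioxidant response element that NRF1 binds, TGACNNNGC on either strand, was in 5 of 32 (15.6%), against 12.4% of all promoters. It was in the promoters of Psmb5, Psmb6, Psmc6, Psmd12 and Psmd9 and in none of the 8 alpha ring promoters. Matches of 1 motif that overlap the other were kept. The windows below run in the direction of the gene, and capitals mark each match of the named motif, on either strand.
Psma1, chr7:114276183-114276242, minus strand, CCAAT: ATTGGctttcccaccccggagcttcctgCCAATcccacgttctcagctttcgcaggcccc
Psma2, chr13:14613175-14613204, plus strand, CCAAT: aggtgactctcctCCAATcagagcaaagaa
Psma3, chr12:70974456-70974515, plus strand, CCAAT: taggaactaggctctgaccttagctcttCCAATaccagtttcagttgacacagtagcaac
Psma6, chr12:55384162-55384221, plus strand, CCAAT: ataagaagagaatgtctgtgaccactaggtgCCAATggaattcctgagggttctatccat
Psma7, chr2:180042644-180042673, minus strand, CCAAT: cgcctgcctgtcgCCAATgcgcgctcgagt
Psmb5, chr14:54618024-54618053, minus strand, TGACNNNGC: acgtgaagttgTGACGTCGCggcgttgcca
Psmb6, chr11:70525297-70525356, plus strand, TGACNNNGC: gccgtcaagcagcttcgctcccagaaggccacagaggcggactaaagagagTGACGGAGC
Psmc6, chr14:45329574-45329633, plus strand, TGACNNNGC read on the opposite strand: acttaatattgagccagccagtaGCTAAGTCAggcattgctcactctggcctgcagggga

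The boxes lie at different distances from the RefSeq start. The first base of the match nearest before the start is 29 bases before it in Psma6, 54 in Psma2, 98 in Psma1, 139 in Psma3 and 196 in Psma7. Further matches begin 126 bases before the start in Psma1, 136 bases before it in Psma6, and at bases 14 and 31 in Psma3, counting the start as base 1. In Psmb6 the element ends at the last base before the start, in Psmb5 it begins 47 bases before it, and in Psmc6 227 bases before it. These matches are a description of the letters in the window and no evidence of binding. The Psma7 window overlaps an annotated exon of the neighbouring gene Ss18l1.

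Every tested subunit gene was well above the filter of 1 FPKM in all 8 libraries. FPKM is per length, so the order of genes depends on the length used. The length of all exons and that of the transcript taken here were 899 and 899 bases for Psmb5. They were 3421 and 1160 bases for Psmb7, and 1872 and 798 bases for Psmb6. The levels below are compared between genes as deposited, and their order under another length was not tested. Over the 8 libraries, the mean level was 74.5 to 309.6 FPKM in core genes (median 159 FPKM) and 63.1 to 225.2 FPKM in regulatory particle genes (median 105 FPKM). The leading level was that of Psmb5 (309.6 FPKM), followed by Psmb7 (244.2 FPKM) and Psmb6 (230.6 FPKM), the beta subunits with the chymotrypsin-like, trypsin-like and caspase-like cutting sites. The ranges of the latter 2 over libraries overlapped, 220.4 to 288.4 and 202.4 to 272.9 FPKM, so their order is within their spread. Psmb5 ranged from 254.5 to 362.4 FPKM. Psmd8, a lid subunit, came next at 225.2 FPKM, and Psmc3, an ATPase, had 194.7 FPKM. The lowest subunit means were those of Psmd3, a lid subunit, at 63.1 FPKM, the ATPase Psmc2 at 65.5 FPKM and the lid subunit Psmd11 at 72.95 FPKM.

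The assembly chaperones stood below all subunits. Psmd5, Psmd10 (gankyrin) and Psmd9 had means of 22.6, 20.3 and 12.1 FPKM, and Psmc3ip had 5.50 FPKM with a range of 4.13 to 7.02 FPKM. Of the cutting subunits made in immune cells, Psmb8 was at 0 to 0.213 FPKM and Psmb9 at 0 to 0.122 FPKM, while Psmb10 ranged from 10.8 to 18.3 FPKM. In the plot of FPKM by library the ATPase gene Psmc6 has 1 value far from the rest.

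**Figure D1:**
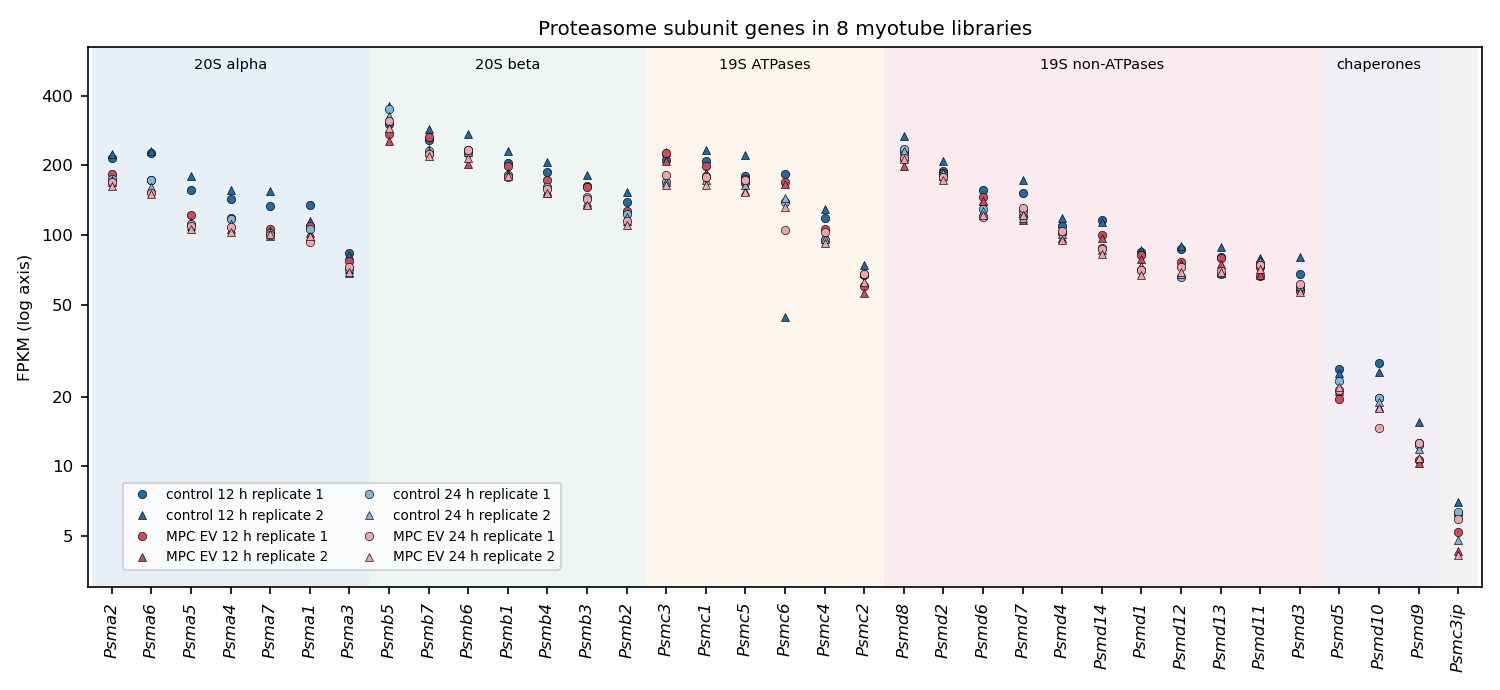
FPKM (log axis) of the 35 tested members in each of the 8 libraries, ordered by role and mean level; circles are replicate 1 and triangles replicate 2 of each group. Control 12 h libraries (dark blue) lie above the other 6 for 25 members, and the lone low triangle is Psmc6 at 44.3 FPKM in control 12 h replicate 2.

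Levels were highest in the control libraries at 12 h. Both of these libraries lay above all other 6 for 25 of 35 members, against 16.4% of all genes tested. This held for 7 of 7 alpha ring genes, 4 of 7 beta ring genes, 3 of 6 ATPases, 8 of 11 non-ATPases and 3 of 3 chaperones, but not for Psmc3ip. Control 12 h replicate 2 was the highest library for 28 members and control 12 h replicate 1 for the other 7. The core genes together made up 0.573% and 0.606% of all FPKM in the control 12 h libraries and 0.476% to 0.529% in the other 6. For the regulatory particle genes the shares were 0.513% and 0.508% against 0.433% to 0.492%.

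After 12 h, part of the subunit genes was lower with MPC EVs, among them 5 of the 7 tested alpha ring genes. Of 35 tested members, 10 fell, none rose and 25 did not pass the test, whereas 14.3% of all tested genes fell and 4.36% rose (limma with Benjamini-Hochberg adjustment over all 10981 tested genes, adjusted p under 0.05). The count was 5 of 7 in the alpha ring, 0 of 7 in the beta ring, 0 of 6 for the ATPases, 3 of 11 for the non-ATPases and 2 of 3 for the chaperones. All beta ring changes were negative in this fit, but not after the correction for GC content and length given below. Over all 10981 genes, 6962 changes were negative in this fit. Of the beta ring genes 4 of 7 had an unadjusted limma p under 0.05, as had 4173 of the 10981 genes. The rings are not shown to differ, and that difference was not tested. In bulk RNA, fewer cells of a type and less RNA per cell cannot be told apart. Fibroblast markers summed to 9.30 and 9.11 FPKM in the control libraries and to 4.51 and 6.05 FPKM with MPC EVs, where 1 of 5 was tested and fell. Proliferation markers summed to 27.3 and 15.9 FPKM against 18.2 and 18.9 FPKM, with 2 of 4 lower. Of the progenitor markers 1 of 5 fell, and of the myotube markers 2 of 8 rose. The part of these cells in the result was not tested.

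Psma6 encodes an alpha ring subunit (ENSMUSG00000021024, chromosome 12, 55384222 to 55418454 in GRCm38). It was at 226 and 232 FPKM in the control libraries, replicates 1 and 2, and at 173 and 158 FPKM with MPC EVs. The groups did not overlap, and the control libraries differed from each other less than the EV libraries did. The log2 change was -0.46 ± 0.07 (SE here and for all changes that follow; limma with Benjamini-Hochberg adjustment, adjusted p = 0.0107). This gene was past the threshold also without control 12 h replicate 2 (-0.44, limma adjusted p = 0.0098).

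Psma5, another alpha ring gene (ENSMUSG00000068749, chromosome 3, 108256926 to 108279974), was at 157 and 179.8 FPKM in control and at 122 and 114 FPKM with MPC EVs. Every EV library was below every control library, and control 12 h replicate 2 was the highest. The change of -0.51 ± 0.08 was the lowest of all members (limma adjusted p = 0.0128), and it was -0.41 without that library.

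Psma7 (ENSMUSG00000027566, chromosome 2, 180036374 to 180042433) had 133 and 154 FPKM in control and 107 and 104 FPKM with MPC EVs. The EV libraries were close together and below both controls (-0.44 ± 0.08, limma adjusted p = 0.0182). Psma4, whose protein helps to close the gate of the core (ENSMUSG00000032301, chromosome 9, 54950790 to 54958030), had 143 and 156 FPKM in control against 118 and 107 FPKM. These groups too were apart (-0.42 ± 0.08, limma adjusted p = 0.0204). Psma2 (ENSMUSG00000015671, chromosome 13, 14613240 to 14674236) had 216 and 225 FPKM in control against 183 and 170.0 FPKM. It had the smallest change of the 5 alpha genes that fell (-0.32 ± 0.06, limma adjusted p = 0.0211).

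Psmd7 was the leading regulatory particle gene. It encodes the lid subunit that pairs with the deubiquitinase Psmd14 (ENSMUSG00000039067, chromosome 8, 107580381 to 107588464). Its level was 152 and 172 FPKM in control and 121 and 116 FPKM with MPC EVs. The control libraries were apart by more than the EV libraries, and the groups did not overlap (-0.45 ± 0.08, limma adjusted p = 0.0192). Psmd14 itself fell from 116 and 113 FPKM to 100.1 and 97.2 FPKM, a change of -0.21 ± 0.05 (limma adjusted p = 0.0408). Psmd12, a scaffold subunit of the lid, fell from 87.1 and 89.6 FPKM to 76.7 and 75.3 FPKM, a change of -0.22 ± 0.05 (limma adjusted p = 0.041). Both of these are small changes with close replicates. Without control 12 h replicate 2 the change of Psmd12 was -0.20 and did not pass (limma adjusted p = 0.0681).

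The 2 chaperones that fell help to build the ATPase ring. Psmd10 (ENSMUSG00000031429, chromosome X, 140948429 to 140956728) had 27.96 and 25.6 FPKM in control and 19.8 and 18.04 FPKM with MPC EVs (-0.49 ± 0.11, limma adjusted p = 0.0311). Psmd5 (ENSMUSG00000026869, chromosome 2, 34849734 to 34874968) had 26.3 and 25.2 FPKM against 19.6 and 21.1 FPKM (-0.33 ± 0.07, limma adjusted p = 0.0291). In neither did the groups overlap.

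Among the members that did not pass, the ATPase Psmc2, the lid subunit Psmd3 and the beta subunit Psmb2 came closest (limma adjusted p = 0.0502, 0.0537 and 0.0552, changes of -0.28, -0.33 and -0.27). The catalytic genes Psmb5, Psmb6 and Psmb7 had changes of -0.33, -0.22 and -0.12 (limma adjusted p = 0.0652, 0.171 and 0.28). For Psmb5 the libraries were at 303 and 362 FPKM in control and at 275 and 254.5 FPKM with MPC EVs, so the groups were apart but the control libraries differed from each other by more than the EV libraries did. The ATPase Psmc3 had overlapping groups, with 211 and 228 FPKM in control and 227 and 208 FPKM with MPC EVs (-0.01 ± 0.08, limma adjusted p = 0.932). Psmc3ip, the member outside the particle, had a change of -0.45 ± 0.20 (limma adjusted p = 0.159).

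Both EV libraries lay below both control libraries for 31 of 35 members, against 45.0% of all genes tested. The median change was -0.26 over the members, -0.42 over the alpha ring, -0.22 over the beta ring, -0.23 over the ATPases and -0.19 over the non-ATPases, against -0.12 over all genes. Median-ratio scaling brought the median of all genes to 0.01 and that of the members to -0.12, with 28 negative and 7 positive changes. It left 4 members past the threshold, Psma5, Psma6, Psma7 and Psmd7. The share of all genes past the threshold under this scaling is not given here.

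**Figure D2:**
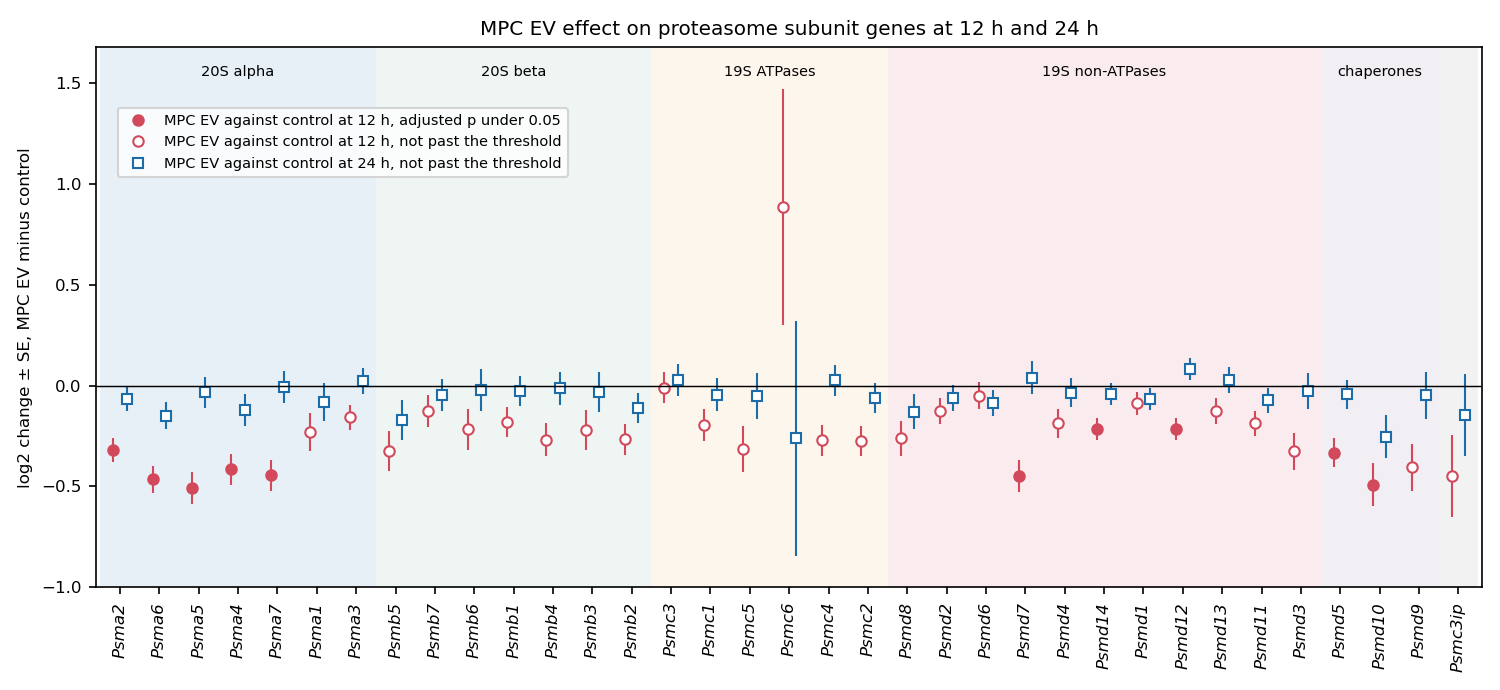
Change on the log2(FPKM + 0.5) scale between MPC EV and control at 12 h (red circles) and 24 h (blue squares) for each tested member, with its SE; filled symbols passed the threshold. The 10 filled symbols are all below 0 and at 12 h, and no member passed at 24 h.

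These counts depended on single libraries and on the scale. The shares over all genes given above are those of the full fit, so the counts below have no matching background here. Leaving out control 12 h replicate 2 gave 10 lower members. These were 9 of those named above and, in place of Psmd12, the alpha ring gene Psma1 (-0.35, limma adjusted p = 0.0232), while leaving out control 12 h replicate 1 gave 27 lower and 1 higher, and leaving out MPC EV 12 h replicate 1 or 2 gave 1 and 0. No member passed after correction for GC content and transcript length, or in a fit to the 4 libraries at 12 h alone. With that correction the 10 changes were all negative, from -0.62 for Psma2 to -0.20 for Psmd12, with limma adjusted p-values from 0.0501 (Psmd10) to 0.251 (Psmd12). They were larger in size than without it for Psma2, Psmd5, Psmd10 and Psmd14, and smaller for the other 6. The corrected change was above 0 for the beta ring genes Psmb3 (0.12), Psmb5 (0.07), Psmb6 (0.18) and Psmb7 (0.002). It was also above 0 for Psmc3, Psmc6, Psmd4, Psmd6 and Psmd13, and below 0 for all other tested members. All alpha ring changes stayed below 0.

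**Figure D3:**
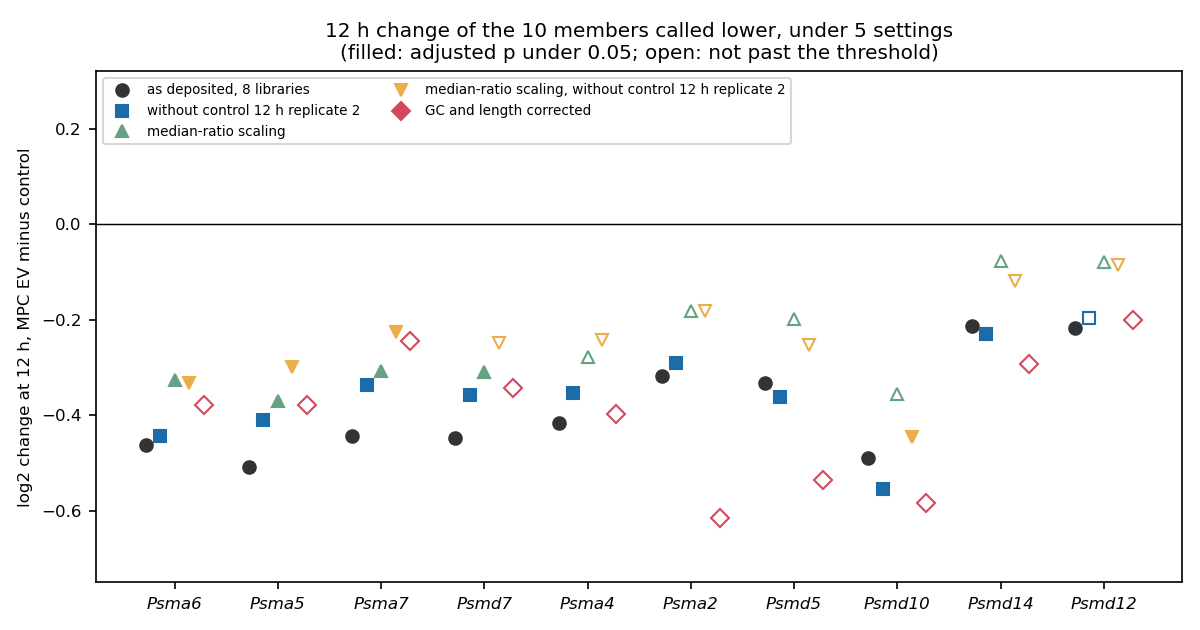
Change at 12 h of the 10 members that fell, under 5 settings, on the log2 scale; filled symbols passed the threshold and open ones did not. All 50 values are below 0, Psma5, Psma6 and Psma7 are filled under the first 4 settings, and none is filled after GC and length correction. The 10 members were picked because they fell in the first setting, and the settings share libraries. Their common sign is therefore no separate support.

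Psmc6 had the highest change at 12 h, and 1 library decided it. This ATPase gene (ENSMUSG00000021832, chromosome 14, 45329788 to 45349705) was at 184 FPKM in control 12 h replicate 1 and at 44.3 FPKM in control 12 h replicate 2, and at 106 to 169.6 FPKM in the other 6 libraries. Its change at 12 h was 0.89 ± 0.58 with all libraries (limma adjusted p = 0.29) and -0.14 without control 12 h replicate 2 (limma adjusted p = 0.456). The difference between those control libraries, replicate 2 minus replicate 1, was -2.04 for Psmc6 and -0.24 to 0.29 for the other 34 tested members, with 28 of the 35 higher in replicate 2.

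Psmc6 also has the lowest GC content of the tested subunit and chaperone transcripts, at 37.0%. Across 34 members, without Psmc3ip, the difference between the 2 control libraries went with transcript GC content, with a Pearson correlation of 0.61 and a Spearman correlation of 0.72. Without Psmc6 the Pearson correlation was 0.71, and over 10945 genes it was 0.59. These are across genes of the same 2 libraries, which are not independent. The alpha ring transcripts had a median GC content of 45.0% and the beta ring transcripts one of 52.2%. The rings are not shown to differ in their change, and the part of GC content in their counts was not tested.

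**Figure D4:**
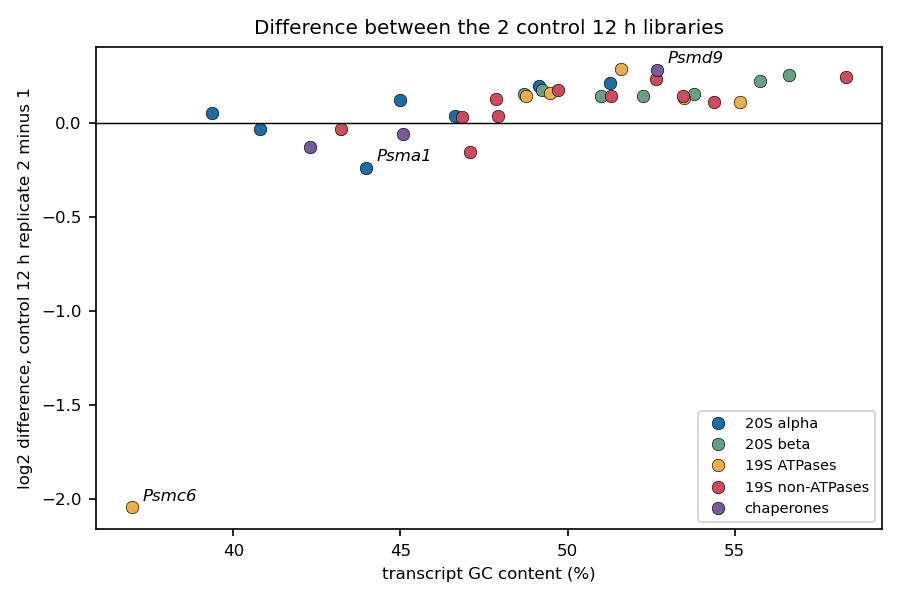
Difference between the 2 control 12 h libraries (replicate 2 minus replicate 1, log2 scale) against the GC content of the transcript, for 34 members coloured by role. Psmc6 is at the lower left, at -2.04 and 37.0%, and the other members lie between -0.24 and 0.29.

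After 24 h no member passed the test between MPC EV and control. By limma, 0 of 35 passed the adjusted threshold, against 2.61% of all genes that rose and 0.956% that fell. At an unadjusted limma p under 0.05 there were 0 of 35 members and 1561 of 10981 genes. The smallest adjusted p was 0.372, for Psmd10 (limma), with 19.8 and 18.98 FPKM in control and 14.7 and 17.8 FPKM with MPC EVs. Its groups were apart, with a change of -0.25 ± 0.11. The members that fell at 12 h had small changes here. Psma5 had 111 and 109 FPKM in control and 109.5 and 106 FPKM with MPC EVs (-0.03 ± 0.08). Psma6 had 173 and 162 FPKM against 151.3 and 150.5 FPKM (-0.15 ± 0.07, limma adjusted p = 0.399). Psma7 had 102.5 and 99.5 FPKM against 100.2 and 100.8 FPKM (-0.01 ± 0.08), and Psmd7 had 127 and 118 FPKM against 131 and 121 FPKM (0.04 ± 0.08).

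Both EV libraries were below both controls at 24 h for 14 members and above them for 2, and the groups overlapped for 19. The background over all genes was 30.2% below and 23.7% above. The median change was -0.05 over the members and -0.03 over all genes. At 24 h 3 of 8 myotube markers and 2 of 5 progenitor markers were higher with MPC EVs. The part of these cells in the result was not tested. The extremes were Psmc6, with 139 and 145 FPKM in control against 106 and 132 FPKM (-0.26 ± 0.58), and Psmd12, with 65.8 and 67.8 FPKM against 72.4 and 69.0 FPKM (0.08 ± 0.05).

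The difference between the effects at the 2 times was tested directly. No member passed (limma with Benjamini-Hochberg adjustment), nor did any of the 10981 genes, in either direction (0% and 0%). At an unadjusted p under 0.05 there were 9 of 35 members and 2014 genes. The smallest p-values were those of Psma5, Psmd7 and Psma7, whose effects at 24 h were higher than at 12 h by 0.47 ± 0.11, 0.49 ± 0.11 and 0.44 ± 0.11 (limma adjusted p = 0.146, 0.146 and 0.15). Psmc6 had the lowest value, -1.15 ± 0.83. The effects at 12 h and 24 h are thus not shown to differ for any member.

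Between 12 h and 24 h the level in control myotubes fell for many members. Of 35, 16 fell and none rose, against 10.3% and 7.54% of all genes (limma). The count was 6 of 7 in the alpha ring, 1 of 7 in the beta ring (Psmb4), 3 of 6 among the ATPases (Psmc1, Psmc3 and Psmc4), 5 of 11 among the non-ATPases and 1 of 3 among the chaperones. Both 24 h libraries were below both 12 h libraries for 29 members, against 30.9% of all genes. The median was -0.26 over the members and 0.01 over all genes. This comparison uses the same control 12 h libraries as the EV comparison at 12 h, so the counts are not independent of each other. Other markers also moved with time in control: 7 of 8 myotube markers and 3 of 5 progenitor markers were lower at 24 h, and 1 progenitor marker and 2 of 4 proliferation markers were higher. Proliferation markers summed to 27.3 and 15.9 FPKM at 12 h and to 41.0 and 42.4 FPKM at 24 h. The part of these cells in the result was not tested.

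The change from 12 h to 24 h in control was -0.60 ± 0.08 for Psma5, the lowest (limma adjusted p = 0.00442), and -0.45 ± 0.07 for Psma6. Psmd12 and Psmd14 fell by 0.40 and 0.39 on the log2 scale, with close replicates (limma adjusted p = 0.00527 and 0.00534): Psmd14 went from 116 and 113 FPKM to 87.5 and 86.6 FPKM. The catalytic gene Psmb5 did not pass, with 303 and 362 FPKM at 12 h and 350.4 and 329 FPKM at 24 h (0.03 ± 0.10). The lid gene Psmd11 had overlapping groups too (0.00 ± 0.06), and Psmc6 had the highest value, 0.64 ± 0.58. Without control 12 h replicate 2 again 16 members fell, 14 of them the same. Without control 24 h replicate 1 or 2 the count was 2 and 0, and in a fit to the 4 control libraries alone it was 0.

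With MPC EVs, a few regulatory particle genes fell between 12 h and 24 h. Of 35 members, 4 fell and none rose, against 5.40% and 12.9% of all genes (limma), and all 4 belong to the regulatory particle. Of the markers, 3 of 8 for myotubes fell, and 2 of 4 for proliferation and 1 of 5 for progenitors rose, and the part of these cells in the result was not tested. Psmc3 had 227 and 208 FPKM at 12 h and 181.7 and 164 FPKM at 24 h (-0.33 ± 0.08, limma adjusted p = 0.0342). Its change between the treatments at 12 h was near 0, and it fell with time under both. Psmd14 went from 100.1 and 97.2 FPKM to 86.9 and 82.4 FPKM (-0.22 ± 0.05, limma adjusted p = 0.0363). The base subunit Psmd1 fell by 0.23 and the lid subunit Psmd6 fell by 0.24 on the log2 scale (limma adjusted p = 0.0384 and 0.048).

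The highest change in this comparison was that of Psmb5, from 275 and 254.5 FPKM to 312 and 291 FPKM (0.19 ± 0.10, limma adjusted p = 0.239). The lowest was that of Psmc6, from 170 and 166 FPKM to 106 and 132 FPKM (-0.50 ± 0.58). Psmc6 did not pass with all libraries (limma adjusted p = 0.591) and passed without control 12 h replicate 2 (limma adjusted p = 0.00626), a library that is in neither of the groups compared but sets the spread in the shared fit. Both 24 h libraries were below both 12 h libraries for 18 members and above them for 6, against 23.6% and 47.1% of all genes, and the median was -0.09 against 0.10. Leaving out either MPC EV 12 h library, or any 24 h library, left 0 members past the threshold.

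The mean level of core particle genes was above that of regulatory particle genes in each library. Single genes overlapped, with means over libraries of 74.5 to 309.6 FPKM in core genes and 63.1 to 225.2 FPKM in regulatory particle genes. The mean log2(FPKM + 0.5) of the 14 core genes exceeded that of the 17 regulatory particle genes by 0.49 and 0.61 in the control 12 h libraries, by 0.43 and 0.36 with MPC EVs at 12 h, by 0.46 and 0.41 in control at 24 h and by 0.41 and 0.43 with MPC EVs at 24 h. The control 12 h libraries had the 2 highest values. Without Psmc6, left out after its values were seen, they were 0.52 and 0.52 against 0.40 to 0.48 in the other 6. A permutation test of 2 libraries against 2 could not pass, and none was run.

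Within the core, the beta ring mean was 7.69 and 7.87 in control at 12 h and 7.63 and 7.47 with MPC EVs, and the alpha ring mean was 7.23 and 7.28 against 6.94 and 6.84. At 24 h the alpha ring mean was 6.88 and 6.82 in control and 6.80 and 6.78 with MPC EVs. The non-ATPase mean was 6.83 and 6.92 in control at 12 h and 6.57 to 6.69 elsewhere. In each of the 4 roles but the ATPases, the control 12 h libraries had the 2 highest means. The ATPase mean in control 12 h replicate 2 was 7.04, below both MPC EV 12 h libraries (7.15 and 7.06), and that library holds the low value of Psmc6. The beta ring mean was above the ATPase mean in each library. The alpha ring mean was above it only in control 12 h replicate 2 (7.28 against 7.04) and below it in every other library. With MPC EVs at 12 h these means were 6.94 and 6.84 against 7.15 and 7.06. The alpha ring mean was above that of all regulatory particle genes in each library.

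**Figure D5:**
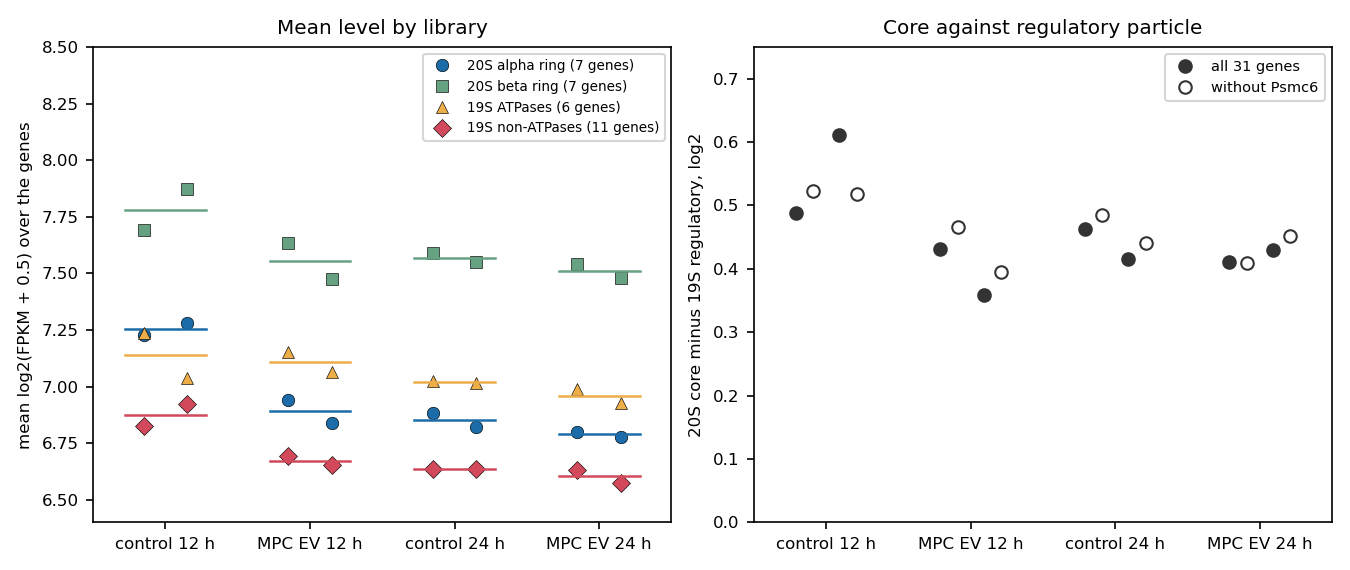
Left: mean log2(FPKM + 0.5) of the alpha ring, beta ring, ATPase and non-ATPase genes in each library, with a line at the mean of each group's 2 libraries. Right: core minus regulatory particle mean, with all 31 genes (filled) and without Psmc6 (open); the control 12 h libraries have the highest values, 0.49 and 0.61.

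Other genes of the pathway, from lists that are not members, gave the following counts at 12 h, where 14.3% of all tested genes fell and 4.36% rose. Of 5 chaperones that assemble the core, 2 fell at 12 h and none rose: Psmg1, from 28.5 and 30.5 FPKM to 22.6 and 21.0 FPKM (-0.43 ± 0.07, limma adjusted p = 0.0144), and Pomp, the maturation factor of the core (-0.33 ± 0.08, limma adjusted p = 0.0398). Pomp was at -0.26 without control 12 h replicate 2 and did not pass (limma adjusted p = 0.0673). Of 6 other regulatory particle genes and bound enzymes, the ubiquitin receptor Adrm1 fell (-0.38 ± 0.10, limma adjusted p = 0.0427). Without control 12 h replicate 2 it was at -0.26 and did not pass (limma adjusted p = 0.0703). The calls of Pomp, Adrm1 and Ubb were each kept in 3 of 11 other settings. Of 5 activators and inhibitors, 2 fell, the partners Psme1 and Psme2 that form the PA28 cap. Psme2 went from 53.0 and 58.5 FPKM to 33.3 and 33.6 FPKM (-0.73 ± 0.08, limma adjusted p = 0.00539), and Psme1 from 7.63 and 8.07 FPKM to 5.0 and 4.72 FPKM (-0.64 ± 0.08, limma adjusted p = 0.00793).

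Psmb10, the tested immunoproteasome gene, fell from 17.6 and 18.3 FPKM to 13.5 and 10.8 FPKM (-0.55 ± 0.13, limma adjusted p = 0.0377), and without control 12 h replicate 2 it did not pass (-0.52, limma adjusted p = 0.0558). Of 7 genes around NRF1, Nfe2l1 fell, from 245 and 296 FPKM to 191 and 203 FPKM (-0.45 ± 0.09, limma adjusted p = 0.0269), and the other 6 did not pass. Its control libraries were far apart, and without control 12 h replicate 2 the change was -0.32 (limma adjusted p = 0.0167). Of 6 ubiquitin and E1 enzyme genes, Ubb fell (-0.39 ± 0.10, limma adjusted p = 0.0461). Of 6 ubiquitin ligases of muscle, Trim63, which encodes MuRF1, fell from 80.6 and 94.2 FPKM to 48.0 and 43.5 FPKM (-0.92 ± 0.09, limma adjusted p = 0.00493). Fbxo32, which encodes atrogin-1, did not pass (0.02 ± 0.16, limma adjusted p = 0.936) and is named after its values were seen. It was at 3.29 and 2.23 FPKM in control and at 2.84 and 2.68 FPKM with MPC EVs. Its change was -0.22 without control 12 h replicate 2.

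Of the 38 genes in these lists 36 were tested, and with all libraries none passed at 24 h in either direction. Without control 12 h replicate 2, which is in neither group at 24 h but sets the spread in the shared fit, Trim63 and Psme1 passed (limma adjusted p = 0.0134 and 0.0296). Trim63 had 34.4 and 32.7 FPKM in control and 26.3 and 24.9 FPKM with MPC EVs (-0.38 ± 0.09, limma adjusted p = 0.103), so both EV libraries were below both controls. Psme1 had 8.25 and 8.01 FPKM against 6.20 and 5.91 FPKM (-0.40 ± 0.08, limma adjusted p = 0.059). Psme2, Nfe2l1 and Psmg1 had changes of -0.23, -0.07 and -0.12.

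The libraries do not mark strand, so fragments over shared exons cannot be assigned between overlapping genes. Neighbours on the opposite strand cover 8.2% of the exonic bases of Psmc3 (Slc39a13, mean 13.6 FPKM), 10.1% of Psmd13 (Sirt3), 11.8% of Psmb7 (Nek6), 21.2% of Psmc3ip (Mlx) and 25.5% of Psmd9 (Gm26745, 0.15 FPKM). Of the 10 members that fell at 12 h, Psma4 and Psma5 have such neighbours, at 4.8% and 4.5%, and both of these neighbours had a mean of 0.06 FPKM. The table holds 4 rows of Psm pseudogenes, all listed at 0 in every library, and how the authors' counting treated fragments shared with other copies is not given in the sources used here.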

How the data were processed

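RNA of the 8 myotube libraries was sequenced as paired ends from libraries that do not mark strand, per the labels' protocols. The authors deposited 1 table of FPKM values, and the submitters' processing notes list HISAT2, DESeq2 (version 2) and the mm10 build without stating a role. In the sources used here, the annotation release and the counter are not given. Because FPKM is relative to each library's total, a shift in a few abundant transcripts moves all other values.

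Symbols, coordinates and exonic overlaps came from GENCODE (GRCm38), matched for 34490 IDs, with 785 unmatched. The test ran on log2(FPKM + 0.5) for genes averaging 1 FPKM or more, a scale that understates the change of low genes, and used limma 3.58.1 in R 4.3.3 (intensity trend, 1 fit of 4 groups to 8 libraries, 4 residual degrees of freedom), two-sided, with Benjamini-Hochberg adjustment over all 10981 tested genes and a threshold of 0.05. Fragment numbers came out whole (tolerance 0.02) in all 8 libraries for 9.12% of tested genes, so no count test was run. The steps were tested on simulated data. Python 3.11.15 with pandas 2.3.3 and matplotlib 3.10.9 made tables and figures.

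Members and lists were chosen with earlier results of these data known. Full values are given for at most 6 members per direction with the smallest p in an EV comparison, then for the extremes of each comparison, the 3 smallest p of the difference, members under the filter, Psmc3ip, and up to 4 genes per other list that passed. The other 4 members that fell at 12 h, catalytic genes, those nearest the threshold and Psma1 were added after their values were seen. Alternatives were other pseudocounts, filters, scalings, no variance trend, a replicate block, GC and length correction, fits to 4 libraries and each library left out.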

Additional observations from a re-analysis of the deposited data

How the results depend on the processing

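At 12 h, 10 members fell with MPC EVs. The count was 1 with no filter on low values, 4 with median-ratio scaling, 4 with that scaling without control 12 h replicate 2, 5 with quantile normalization, 6 with the replicate block, 0 after GC and length correction and 0 in a fit to the 4 libraries compared. With each library left out it ranged from 0 to 27, and for higher members from 0 to 1. For the fall from 12 h to 24 h in control, 16 in the full fit, the count was 7 with no filter, 10 with the replicate block, 10 after GC and length correction, 0 in the fit to 4 libraries and 0 to 27 with each library left out (0 to 1 for higher members). For the fall with time under MPC EVs, 4 in the full fit, it was 0 with no filter, 0 with no variance trend, 0 with the replicate block, 7 with quantile normalization, 18 with median-ratio scaling without control 12 h replicate 2, and 0 to 6 with each library left out (0 to 1 for higher members). The difference of the effects had 0 to 14 higher and 0 to 1 lower members with each library left out, all of them without control 12 h replicate 1. The counts at 24 h were 0 in every setting run. Fits to 4 libraries have fewer residual degrees of freedom, and fits without a filter test more genes. The causes of the other shifts were not tested. Shares over all genes are given for the full fit only, so the counts under other settings have no matching background here. Of the 10 calls at 12 h, that of Psma6 was kept in 9 of 11 settings and with 7 of 8 libraries left out, and that of Psmd12 in 3 of 11 and with 1 of 8, as were those of Pomp and Adrm1. Adrm1 went from -0.38 to 0.0372 after GC and length correction.

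The replicate numbers were not used to pair the samples, and the replicate block is an alternative only. Deviations of same-numbered libraries correlated at -0.61 to 0.24 between groups over 10981 genes. Such values across genes cannot show whether same-numbered libraries shared a culture or a batch.

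Precision is limited by 2 libraries a group and by depth for Psmd10 and Psmc3ip, which had about 352 to 769 and 135 to 253 fragments per library.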
